A study of Mus musculus with 18 samples.

Results

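Imprinted genes are transcribed mainly from the chromosome inherited from 1 parent, and a list of 39 mouse imprinted genes was followed here through neural differentiation with and without Hmgn1. The members were taken by gene symbol, and every Affymetrix probe set annotated to them was read. Of the 39 genes, 38 had a probe set with a single gene symbol and 36 passed the filter on low signal, against 18193 and 14432 genes in the whole series. The exceptions were Kcnq1 and Zim1, whose probe sets stayed under the filter, and H19, which is read only by a probe set shared with Mir675, the miRNA gene inside it. A probe set is a group of short probes read together, usually for 1 gene, and the 39 genes had 105 of them.

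The 18 arrays came from C57/B6 mouse cells in 6 groups of 3. They were embryonic stem cells (ES cells), progenitors of the neural lineage, or neurons, with Hmgn1 intact on both chromosomes (+/+) or lost from both (-/-). Hmgn1 encodes a protein that binds nucleosomes and loosens chromatin. LIF and serum replacement maintained the ES cells, with growth-arrested embryonic fibroblasts beneath them or without, and the labels do not say which array had which. A commercial kit for dopaminergic neurons was used to turn ES cells into progenitors and neurons, with times that the labels leave out. The number of ES cell lines per genotype is not stated, so a line and its genotype cannot be told apart. The 3 arrays of a group are labelled as biological replicates without saying whether they were separate cultures or differentiations, and p-values therefore measure the spread between these arrays, which may be technical.

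Imprinting is set by DNA methylation laid down in egg or sperm at a control region, which then decides which parental copy of each gene in a cluster is active. Many imprinted genes act on growth: Igf2 drives it, whereas Igf2r, Grb10, Cdkn1c and Phlda2 restrain it, and many others, such as Ndn, Magel2, Nnat and Ube3a, are best known in the brain. The arrays do not separate the maternal from the paternal RNA, so a higher level here is a higher total and says nothing of the imprint itself. In such bulk samples, fewer cells of a type and less RNA per cell cannot be told apart.

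Values are intensities on a linear scale, and differences are on the log2(intensity + 1) scale, taken as -/- minus +/+ or as later minus earlier stage, with their standard error (SE) and n = 3 arrays per group. A gene is said to have risen or fallen where limma gave a Benjamini-Hochberg adjusted p under 0.05 over all 14432 genes. The signal level used as a filter was the 40th percentile of an array, an intensity of 36.6 to 38.7. Below it an intensity is close to background. Intensities of different probe sets are not comparable with each other, since each depends on its own probes.

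Hmgn1 itself was lower in -/- cells of each type at each of its 3 probe sets, by log2 differences between -0.31 and -0.56 with no overlap of the groups. Signal thus remained in -/- cells. The labels do not say which part of the gene was deleted, and a probe set outside it would not check the genotype. Arrays of a group correlated at r 0.995 to 0.998 across genes. Replicate 3 of the +/+ ES arrays stood apart, with 32 genes more than 2-fold from its group mates against 0 to 12 on the other arrays, and none of the 32 was an imprinted member. Pluripotency and neuron markers followed the cell type labels. Progenitor markers separated progenitors widely from ES cells and, within each genotype, narrowly from neurons. Summed over 12 pluripotency genes, the intensity was 52345 to 56994 on ES arrays and 6303 to 8807 on the others. The 12 neuron markers summed to 34500 to 40935 in neurons and to 3734 to 8516 elsewhere. The 10 progenitor markers summed to 2316 to 2802 in ES cells, to 32994 to 35781 in progenitors and still to 27606 to 34309 in neurons. In +/+ cells these sums were 32994 to 33704 in progenitors and 27606 to 29916 in neurons. In -/- cells they were 34991 to 35781 and 32844 to 34309. Markers of other lineages rose into progenitors too. The sum of 12 endoderm markers was 571 to 699 in +/+ ES cells and 13624 to 14010 in +/+ progenitors. That of 12 mesenchyme and fibroblast markers was 3820 to 4143 and then 15567 to 16509.

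**Figure D1:**
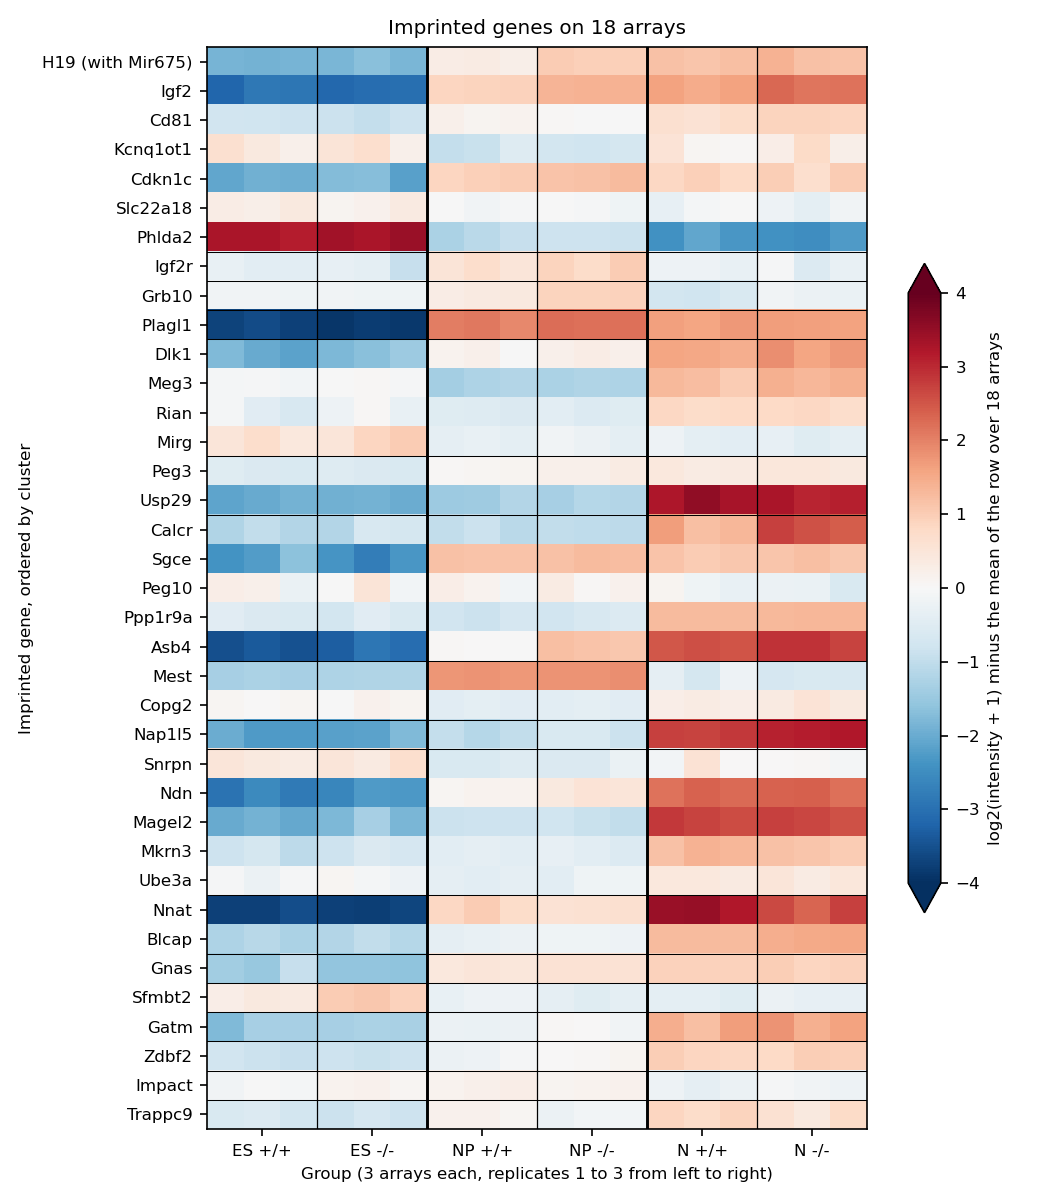
Heat map of log2(intensity + 1) on each of the 18 arrays for 36 tested imprinted genes and the probe set shared by H19 and Mir675, each row relative to its own mean, with genes ordered by cluster. The cell types differ more than the genotypes: 22 of the 36 tested genes were highest in neurons, 8 in progenitors and 6 in ES cells.

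Differentiation moved most imprinted genes, mainly upward. From +/+ ES cells to +/+ progenitors, 23 of the 36 rose and 10 fell, where 41.3% of all tested genes rose and 37.2% fell (78.5% called). From progenitors to neurons 24 rose and 7 fell, against 34.6% and 44.4% of all genes (79% called). The median log2 difference of the members was 0.67 and then 0.73, and that of all genes was 0.02 and then -0.11. In +/+ cells 61.1% of the members had their highest mean in neurons against 35.1% of all genes, and 16.7% had it in ES cells against 39.4%. In -/- cells the steps gave 22 rises and 10 falls (39.8% and 38% of all genes, 77.7% called), then 24 rises and 8 falls (35.2% and 45.6%, 80.9% called), and each member peaked at the same stage as in +/+ cells.

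The largest class by path held 16 members, which rose at both steps in +/+ cells, among them Igf2, Dlk1, Asb4, Nnat, Ndn, Magel2, Nap1l5, Gnas and Usp29. Another 5 rose and then fell (Grb10, Igf2r, Impact, Mest and Plagl1), and 6 fell and then rose (Copg2, Kcnq1ot1, Meg3, Ppp1r9a, Snrpn and Ube3a). Phlda2 and Sfmbt2 fell at both steps. Peg10, a gene derived from a retrotransposon, passed the test at neither, with intensities of 44.9 to 66.6 on the +/+ arrays. The remaining members changed at 1 step only. At Usp29 the first rise lay among arrays near or under the filter level. Of all genes, 78.5% were called at the first +/+ step and 79% at the second. Shares of all genes on these paths were not counted, so the path counts describe the members only.

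Plagl1, a zinc finger transcription factor that restrains cell division, had the largest change into progenitors. Its intensity was 139, 151 and 136 in +/+ ES cells and 7584, 7867 and 7003 in +/+ progenitors, with no overlap. The log2 difference was 5.71 (SE 0.06, adjusted p 4.03e-20), and it then fell by 0.37 to 5741, 5496 and 6118 in neurons (adjusted p 1.64e-05). Its other 2 probe sets above the filter rose by 1.5 and 2.19 into progenitors. All 3 therefore went up, by amounts that differ.

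Phlda2, which limits placental growth, ran the other way. It read 1651, 1639.7 and 1505 in +/+ ES cells, then 69, 79.8 and 88 in progenitors, then 30.8, 39.5 and 33.2 in neurons. Each stage lay below the one before it, and 2 of the 3 neuron arrays were under the filter level. The first fall was -4.33 (SE 0.09, adjusted p 2.3e-16) and the second passed the test too (adjusted p 4.88e-09), with no exact size given because of those dim arrays. In -/- cells, where all 3 neuron arrays were under the filter level, progenitors were at least 2.46-fold above neurons. Cdkn1c, an inhibitor of cyclin-dependent kinases, rose instead, from 393, 432 and 431 to 2976, 3219.9 and 3339 in progenitors, by 2.92 (adjusted p 2.02e-13), and did not pass the test after that in +/+ cells.

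Mest, which encodes a protein of the hydrolase fold and is a classic marker of mesoderm, peaked in progenitors. It read 1081, 1127 and 1088 in +/+ ES cells, then 9231, 9452 and 9031 in progenitors, then 2099.5, 1651 and 2358 in neurons. The progenitor arrays lay above all others, with a rise of 3.07 (SE 0.09, adjusted p 5.64e-15) and a fall of 2.20 (adjusted p 4.62e-13). Sgce, the gene of epsilon-sarcoglycan, rose by 3.25 (SE 0.14, adjusted p 1.41e-12), from 110.3, 124 and 186 to 1319.5, 1301 and 1289, and was at 1307, 1183 and 1252 in neurons. Its progenitor and neuron arrays overlapped, whereas its other probe set rose by 1.07 into neurons.

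Several imprinted transcripts carry miRNAs within their genes, and the array reads the host RNA and not the miRNA. Mature sequences are shown for H19, Igf2 and Mest, which changed by over 2 on the log2 scale into progenitors, and for a Mirg pair that shares a seed. Mir675, the gene that shares the H19 probe set, gives 2 mature miRNAs, and RefSeq (GRCm38.p6) places 2 inside Igf2, 2 inside Mest and 19 inside Mirg. Capitals mark the seed, bases 2 to 8, which pairs with targets.
miR-675-5p: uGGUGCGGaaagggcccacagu
miR-675-3p: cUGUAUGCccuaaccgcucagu
miR-483-5p: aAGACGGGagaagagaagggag
miR-483-3p: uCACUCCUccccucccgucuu
miR-335-5p: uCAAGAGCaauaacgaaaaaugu
miR-335-3p: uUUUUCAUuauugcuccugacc
miR-453: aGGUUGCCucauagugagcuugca
miR-496a-5p: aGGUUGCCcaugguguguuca
The first pair comes from Mir675, the second lies in Igf2, the third in Mest, and the last 2 lie in Mirg. The 2 Mirg miRNAs share the seed GGUUGCC, which no other mature sequence of the table carries. The other 6 each have a seed of their own in that table.

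Usp29, a gene of the ubiquitin-specific protease family, rose into neurons from a dim signal. It read 19.4, 21 and 22.6 in +/+ ES cells and 31.2, 32.1 and 38.2 in progenitors, all near or under the filter level. In neurons it read 836, 1037 and 868. The rise from progenitors passed the test in +/+ (adjusted p 2.25e-16) and in -/- cells (adjusted p 4.1e-16). Since 2 of 3 +/+ and 1 of 3 -/- progenitor arrays were under the filter level, its exact size is not given. Usp29 was thus near background before neurons and bright in them.

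Peg3, a zinc finger gene that starts back to back with Usp29, was bright throughout: 3782, 3589.8 and 3526 in +/+ ES cells, then 5495, 5574 and 5799 in progenitors, then 7187, 6745 and 6790.4 in neurons. It rose by 0.63 (adjusted p 4.38e-09) and by 0.30 (adjusted p 4.34e-05). By RefSeq gene records, 96 bases lie between the outermost annotated ends of the 2 genes, and they are shown because the pair differ so widely over the stages. The starts in the RefSeq promoter table lie within those ends and so are farther apart. The stretch is chr7:6730463-6730558 (GRCm38.p6, plus strand, the strand of Usp29), with its 3 CG pairs in capitals.
Peg3-Usp29: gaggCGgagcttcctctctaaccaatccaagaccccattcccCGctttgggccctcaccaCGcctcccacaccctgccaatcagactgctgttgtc

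Nap1l5, a nucleosome assembly protein gene, rose into neurons by 3.78 (SE 0.10, adjusted p 4.59e-15), from 147, 129 and 144 to 1925, 1857 and 2025. Magel2, of the MAGE family and part of the Prader-Willi region, rose by 3.55 (adjusted p 1.35e-14), from 130.0, 133 and 135 to 1701, 1550.1 and 1456. Both had risen into progenitors too, by 1.15 and 1.14. Ndn, its neighbour, rose by 2.90 (adjusted p 4.99e-14) and by 2.14 (adjusted p 2.69e-12). All 3 belong to the paternally expressed members.

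Meg3, the maternally expressed noncoding RNA of the Dlk1 cluster, fell and then rose. It read 2332, 2366 and 2279 in +/+ ES cells, then 953, 1043 and 1089.9 in progenitors, then 6002, 5836 and 5012 in neurons. The changes were -1.18 (SE 0.07, adjusted p 4.12e-11) and 2.45 (adjusted p 5.12e-15). Meg3 has 11 probe sets above the filter. Into progenitors they ranged from -1.73 to 0.00, and into neurons each of the 11 rose, by 1.76 to 4.38. Their direction into neurons was the same and their size was not. Over all 30890 probe sets, 73.9% were called at the first step in +/+ cells and 74.4% at the second (73.1% and 76.9% in -/-). Mirg, farther along the same maternal transcripts, fell into progenitors by 0.88 (adjusted p 1.47e-06).

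Dlk1, the paternally expressed gene of that cluster and a transmembrane relative of Notch ligands, rose at both steps, by 2.09 (adjusted p 5.3e-12) and 1.41 (adjusted p 9.8e-10). It read 78.6, 65.6 and 60.7 in +/+ ES cells, then 298, 311 and 268 in progenitors, then 809, 788 and 736 in neurons. Its first step was upward where that of Meg3 was downward.

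Ube3a, the ubiquitin ligase gene of Angelman syndrome, fell by 0.26 into progenitors (adjusted p 0.0069) and rose by 0.78 into neurons (adjusted p 1.03e-07) at its brightest probe set. That probe set read 2769.7, 2433 and 2758 in +/+ ES cells, then 2224, 2156 and 2256 in progenitors, then 3865, 3843 and 3699.8 in neurons. Of its 6 probe sets above the filter, 4 rose into +/+ neurons, 1 did not pass and 1 fell by 0.42, from 272.6, 271.9 and 287.6 to 195.5, 223.2 and 204.9. A single direction for Ube3a in neurons therefore depends on the probe set.

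**Figure D2:**
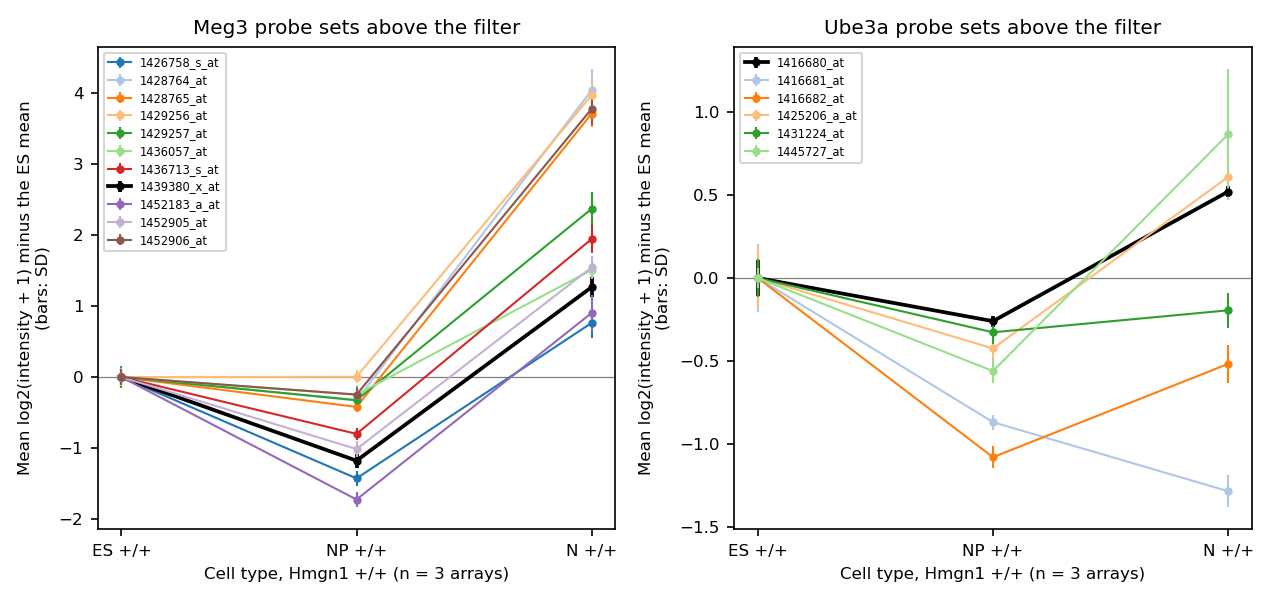
Mean log2(intensity + 1) of each probe set of Meg3 (left) and Ube3a (right) in +/+ cells relative to its own mean in ES cells, over ES cells, progenitors (NP) and neurons (N), with SD bars over 3 arrays and the probe set used for the gene in black. The 11 Meg3 probe sets all rise from progenitors to neurons, while 1 Ube3a probe set falls there.

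Grb10 and Impact also had probe sets that disagreed. Grb10, used at its brightest probe set, rose by 0.50 into +/+ progenitors, whereas its other 2 probe sets fell by 0.76 and 0.29. Impact, which restrains a kinase that senses amino acid shortage, had 2 probe sets that rose and 1 that fell, between -0.30 and 0.31. Snrpn, the gene of a neuronal splicing protein, was tested at a probe set that read 66.9 to 156 on +/+ arrays. Its bright probe sets are shared with Snurf, the reading frame on the same transcript: the brightest read 2136, 1870 and 2252 in +/+ ES cells, then 1443, 1590 and 1301 in progenitors, then 3105, 3309 and 2866 in neurons. It fell by 0.53 and rose by 1.10, the same directions as at the dim probe set.

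Loss of Hmgn1 went with smaller differences, more often upward than downward. In ES cells 6 of the 36 members were higher in -/- and 1 was lower, where 14.9% of all genes were called (10.5% higher, 4.32% lower). In progenitors 8 were higher and 2 lower, against 17% of all genes (7.81% and 9.19%). In neurons 7 were higher and 1 lower, against 13.2% (5.95% and 7.27%). The median difference of the members was 0.07, 0.11 and 0.04 in the 3 cell types, and that of all genes 0.04, 0.00 and -0.02. In all, 18 of the 36 were called in at least 1 cell type (50%, against 34.8% of all genes). Asb4 was called in each cell type, as were 1.23% of all genes. Its ES arrays were all under the filter level, and its neuron call was kept in 8 of 13 alternatives. Calls kept in all 13 alternatives were those of Sfmbt2 in ES cells, of Asb4, Grb10 and Igf2 in progenitors, and of Blcap, Calcr, Grb10, Igf2 and Nnat in neurons.

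Groups without overlap were common: 28.3% of all genes had none between the ES groups, 40.8% between the progenitor groups and 31.5% between the neuron groups.

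Single arrays moved the counts of calls. In ES cells the 7 calls became 2 without +/+ replicate 3, 2 without -/- replicate 2 and 4 without -/- replicate 3, and 1 when the ES arrays were fitted alone. Calls among all genes fell there too, from 2144 to 1459, 1461, 1437 and 234 in the same order. In progenitors the 10 calls became 4 and 5 without +/+ replicates 1 and 2, and 6, 4 and 5 without -/- replicates 1, 2 and 3. For all genes the 2453 calls became 1809 and 1877, and 1876, 1873 and 1852. The share of higher calls among all genes called in ES cells was 70.9%, and 54.2% after quantile normalization, where the members gave 5 higher and 2 lower.

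**Figure D3:**
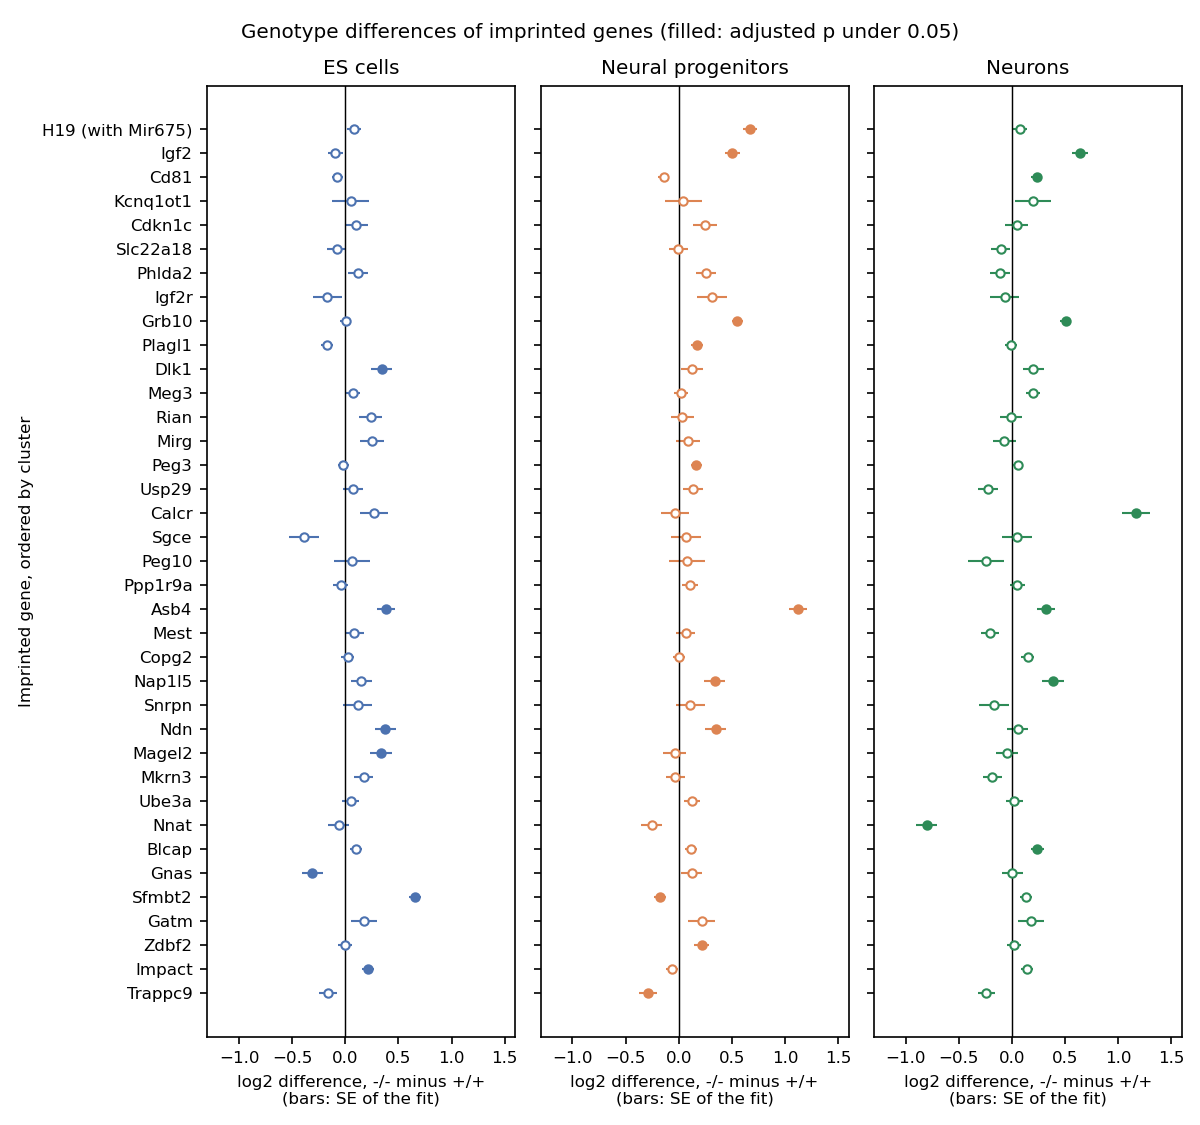
Log2 difference, -/- minus +/+, of each tested imprinted gene and of the H19 and Mir675 probe set in ES cells, progenitors and neurons, with SE bars from the fit and filled points for an adjusted p under 0.05. Most points lie within 0.4 of 0, and Asb4 in progenitors (1.13), Calcr in neurons (1.17) and Nnat in neurons (-0.80) lie farthest out.

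Beside these counts, markers of other cell types moved with genotype in the differentiated cells. Of 12 mesenchyme and fibroblast markers 11 were higher in -/- progenitors, and their summed intensity was 15567 to 16509 in +/+ and 27282 to 27626 in -/-. In neurons 8 of 12 were higher, with sums of 18103 to 21874 and 28161 to 33057. In ES cells 1 was higher and 2 lower, with sums of 3820 to 4143 and 3602 to 3720, and the means of Col3a1, Pdgfrb, Lum and Prrx1 were under the filter level in both genotypes there.

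Endoderm markers moved the other way: 8 of 12 were lower and 1 higher in -/- progenitors, with sums of 13624 to 14010 against 5965 to 6244. In neurons 6 were lower. Of 9 tested trophoblast markers 5 were higher and 2 lower in -/- progenitors, with sums of 601 to 664 against 1248 to 1472. Of the pluripotency genes 7 were lower and 1 higher there. Some of these markers were dim. The means of the trophoblast markers Prl4a1 and Ctsj were under the filter level in +/+ progenitors, and 7 of the 9 were under it in neurons of both genotypes. Of the endoderm markers, Afp was under it in neurons of both genotypes and Apoa1 in -/- neurons. Of the pluripotency genes, Zfp42 was under it in progenitors of both genotypes and Tfcp2l1 in -/- progenitors. Neural markers differed in neurons too, where 13.2% of all genes were called. Of the 12 neuron markers 1 was higher and 3 lower in -/- neurons, with sums of 36198 to 40935 in +/+ and 34500 to 36095 in -/-. Of the 10 progenitor markers 1 was higher and 2 lower there, with sums of 27606 to 29916 and 32844 to 34309. The part of these lists in the results on imprinted genes was not tested.

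Igf2, the fetal growth factor, was higher in -/- progenitors and neurons and not in ES cells. Its intensity was 2468, 2549.6 and 2572 in +/+ progenitors and 3533, 3625 and 3622 in -/- progenitors. In neurons it was 4166, 3823 and 4183 in +/+ and 6682, 6086 and 6184 in -/-. The -/- arrays were above all +/+ arrays at both stages.

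The log2 differences of Igf2 were 0.51 in progenitors (SE 0.07, adjusted p 0.000124) and 0.64 in neurons (SE 0.07, adjusted p 2.52e-05). In ES cells, at 149.6, 187 and 185 in +/+ and 153, 164 and 169 in -/-, the groups overlapped and the difference was -0.09 (adjusted p 0.43). Its rise through differentiation was already large in +/+ cells, at 3.86 into progenitors (adjusted p 5.72e-17) and 0.68 into neurons (adjusted p 2.55e-07). The second, dimmer Igf2 probe set was 0.69 higher in -/- progenitors, and its 0.59 in neurons did not pass.

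H19, the maternally expressed noncoding RNA that shares enhancers with Igf2, was read through the probe set shared with Mir675. It read 3984, 4121 and 3858 in +/+ progenitors and 6508, 6232 and 6289.8 in -/- progenitors. In neurons the readings were 7251, 6992 and 7424 in +/+ and 8539.6, 7287 and 7127 in -/-. The groups were apart in progenitors and overlapped in neurons.

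The difference at H19 was 0.67 in progenitors (SE 0.07, adjusted p 3.12e-06 over 30890 probe sets, of which 11% were called), 0.08 in neurons (adjusted p 0.554) and 0.09 in ES cells (adjusted p 0.445). In ES cells it read 898, 876 and 898 in +/+ and 909.6, 1009 and 919.9 in -/-. From +/+ ES cells it rose by 2.16 into progenitors and by 0.86 into neurons. Igf2 and H19 are expressed from opposite parental chromosomes, and both totals were higher in -/- progenitors.

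Cd81, a tetraspanin of the cell surface, was higher in -/- neurons by 0.23 (SE 0.05, adjusted p 0.00624), at 6579, 6317 and 7033 against 7795, 7941 and 7675, without overlap. Its difference in progenitors was -0.14 (adjusted p 0.0755). In the same cluster as Cd81, Kcnq1ot1, the noncoding RNA that silences its neighbours, had differences of 0.05, 0.04 and 0.20 in the 3 cell types. Those of Cdkn1c were 0.10, 0.25 and 0.04. None of these 6 values passed the test, nor did those of Slc22a18 and Phlda2. Kcnq1, a potassium channel gene, read 20.7 to 38 over all arrays.

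Grb10, an adaptor that dampens insulin and IGF signalling, was higher in -/- progenitors and neurons. Progenitor arrays read 3295, 3472 and 3507 in +/+ and 4987, 4999 and 5083 in -/-. Neuron arrays read 1618, 1537 and 1785 in +/+ and 2445, 2301 and 2250.4 in -/-. The genotypes were apart at both stages, by 0.55 (SE 0.05, adjusted p 1.71e-06) and 0.50 (SE 0.05, adjusted p 1.13e-05).

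In ES cells Grb10 read 2449, 2422 and 2374 in +/+ and 2439.9, 2418 and 2407 in -/-, a difference of 0.00 (adjusted p 0.969). A second probe set gave 0.45 and 0.43 in progenitors and neurons and passed the test in both, and the third gave 0.16 and -0.11 and passed in neither. Igf2r, the receptor that clears IGF2, had differences of -0.17, 0.31 and -0.07, none of which passed. Its progenitor arrays read 1651, 1913 and 1624 in +/+ and 2146, 1939 and 2368 in -/-.

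The first annotated Grb10 start is shown because its upstream sequence is among the richest in CG, the pair at which DNA is methylated. The 250 bases before it hold 40 CG pairs, a number reached by 1.31% of 32851 RefSeq windows of that length. The median is 6 over all windows and 10 over the 50 windows of the 32 members with an entry. The window is chr11:12037421-12037670 (GRCm38.p6, minus strand), with CG in capitals.
Grb10: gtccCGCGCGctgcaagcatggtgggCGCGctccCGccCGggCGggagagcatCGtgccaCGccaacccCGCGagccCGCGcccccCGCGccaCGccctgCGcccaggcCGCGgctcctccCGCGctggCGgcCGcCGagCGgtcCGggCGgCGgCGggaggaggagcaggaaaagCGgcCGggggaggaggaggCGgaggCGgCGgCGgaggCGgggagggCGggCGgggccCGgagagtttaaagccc

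Asb4, which encodes a substrate-binding subunit of ubiquitin ligases and is maternally expressed, had the largest genotype difference in progenitors. It read 211, 208 and 202 in +/+ and 474, 452 and 434 in -/- progenitors, and 1143, 1228 and 1159 in +/+ and 1521, 1532 and 1346 in -/- neurons. The genotypes did not overlap at either stage. The differences were 1.13 (SE 0.08, adjusted p 9.17e-08) and 0.32 (SE 0.08, adjusted p 0.0199).

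ES cells gave 16.9, 18.8 and 17.2 in +/+ and 19.8, 26.7 and 23.8 in -/- for Asb4. The test passed there as well (adjusted p 0.00733), but all 6 arrays were under the filter level, so no fold is given. From ES cells to progenitors the rise was at least 5.3-fold in +/+ and at least 11.7-fold in -/-, with ES cells taken at the filter level. The second Asb4 probe set was 1.10 higher in -/- progenitors, and its 0.30 and 0.23 in ES cells and neurons did not pass.

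The 250 bases before the first annotated Asb4 start, chr6:5383136-5383385 (GRCm38.p6, plus strand), are shown for contrast with Grb10. They hold 4 CG pairs, and 62.2% of all windows hold that many or more. The contrast is one of the first starts only. Grb10 and Asb4 each have a second annotated start, and the window before it holds 8 CG pairs in both genes.
Asb4: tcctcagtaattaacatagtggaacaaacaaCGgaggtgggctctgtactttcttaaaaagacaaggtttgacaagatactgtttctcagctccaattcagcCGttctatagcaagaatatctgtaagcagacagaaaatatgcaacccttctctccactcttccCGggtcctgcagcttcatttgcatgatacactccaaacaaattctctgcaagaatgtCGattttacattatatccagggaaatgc

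Calcr, the calcitonin receptor gene of the same cluster as Asb4, was measurable in neurons only. It read 126, 89.5 and 98.5 in +/+ and 259, 229.8 and 213 in -/- neurons, and 16 to 24.2 on all 12 other arrays, under the filter level. The -/- neurons were higher by 1.17 (SE 0.13, adjusted p 2.03e-05), with no overlap. From progenitors to neurons it rose at least 2.74-fold in +/+ and at least 6.13-fold in -/-. Its other neighbours Sgce, Peg10 and Ppp1r9a passed the genotype test in no cell type.

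Nnat, a small membrane protein gene of neurons, was the only tested member that fell in -/- neurons. It read 10833, 11187 and 9103 in +/+ and 6221, 5023 and 6628 in -/- neurons, all 3 below the +/+ arrays. The difference was -0.80 (SE 0.10, adjusted p 4.95e-05). In progenitors it read 1769, 2009 and 1658 against 1486, 1508 and 1547, and -0.26 did not pass (adjusted p 0.101). In +/+ cells it had risen from 74.2, 74.6 and 84.9 in ES cells, by 4.52 (adjusted p 2.83e-16), and then by 2.52 (adjusted p 5.28e-13).

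Blcap, the maternally expressed gene in whose intron Nnat lies, went the other way in neurons. It read 2176, 2192 and 2202 in +/+ and 2496, 2611 and 2651 in -/-, without overlap, a difference of 0.24 (SE 0.06, adjusted p 0.0129). In -/- neurons the paternally expressed gene of the pair was thus lower and the maternally expressed one higher. Their upstream windows are shown for that reason, and each holds 12 CG pairs, a number reached by 33.5% of all windows. The windows are chr2:157559828-157560077 (plus strand) for Nnat and chr2:157566362-157566611 (minus strand) for Blcap, both GRCm38.p6.
Nnat: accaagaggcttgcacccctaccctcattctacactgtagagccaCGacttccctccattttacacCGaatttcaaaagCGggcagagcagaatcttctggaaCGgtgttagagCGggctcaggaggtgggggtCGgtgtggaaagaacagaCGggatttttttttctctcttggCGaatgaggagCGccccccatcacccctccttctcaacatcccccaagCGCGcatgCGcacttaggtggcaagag
Blcap: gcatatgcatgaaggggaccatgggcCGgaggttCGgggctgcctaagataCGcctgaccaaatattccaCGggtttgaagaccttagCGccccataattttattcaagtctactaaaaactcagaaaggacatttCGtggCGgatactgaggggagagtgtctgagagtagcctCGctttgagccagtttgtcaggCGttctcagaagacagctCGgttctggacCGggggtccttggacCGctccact

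Sfmbt2, a Polycomb-related gene, was the member with the largest difference in ES cells. It read 574, 630.5 and 614 in +/+ and 954, 1014 and 907 in -/- ES cells, with no overlap and a difference of 0.66 (SE 0.06, adjusted p 2.58e-06). In progenitors it read 391, 416 and 409.8 against 373, 343 and 360.5 and was lower in -/- by 0.18 (adjusted p 0.0419). In neurons it read 363, 359 and 342 against 406, 380.2 and 382, where 0.14 did not pass (adjusted p 0.135). Its second probe set, dim in most groups, gave 0.38, -0.19 and 0.37, and none passed.

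**Figure D4:**
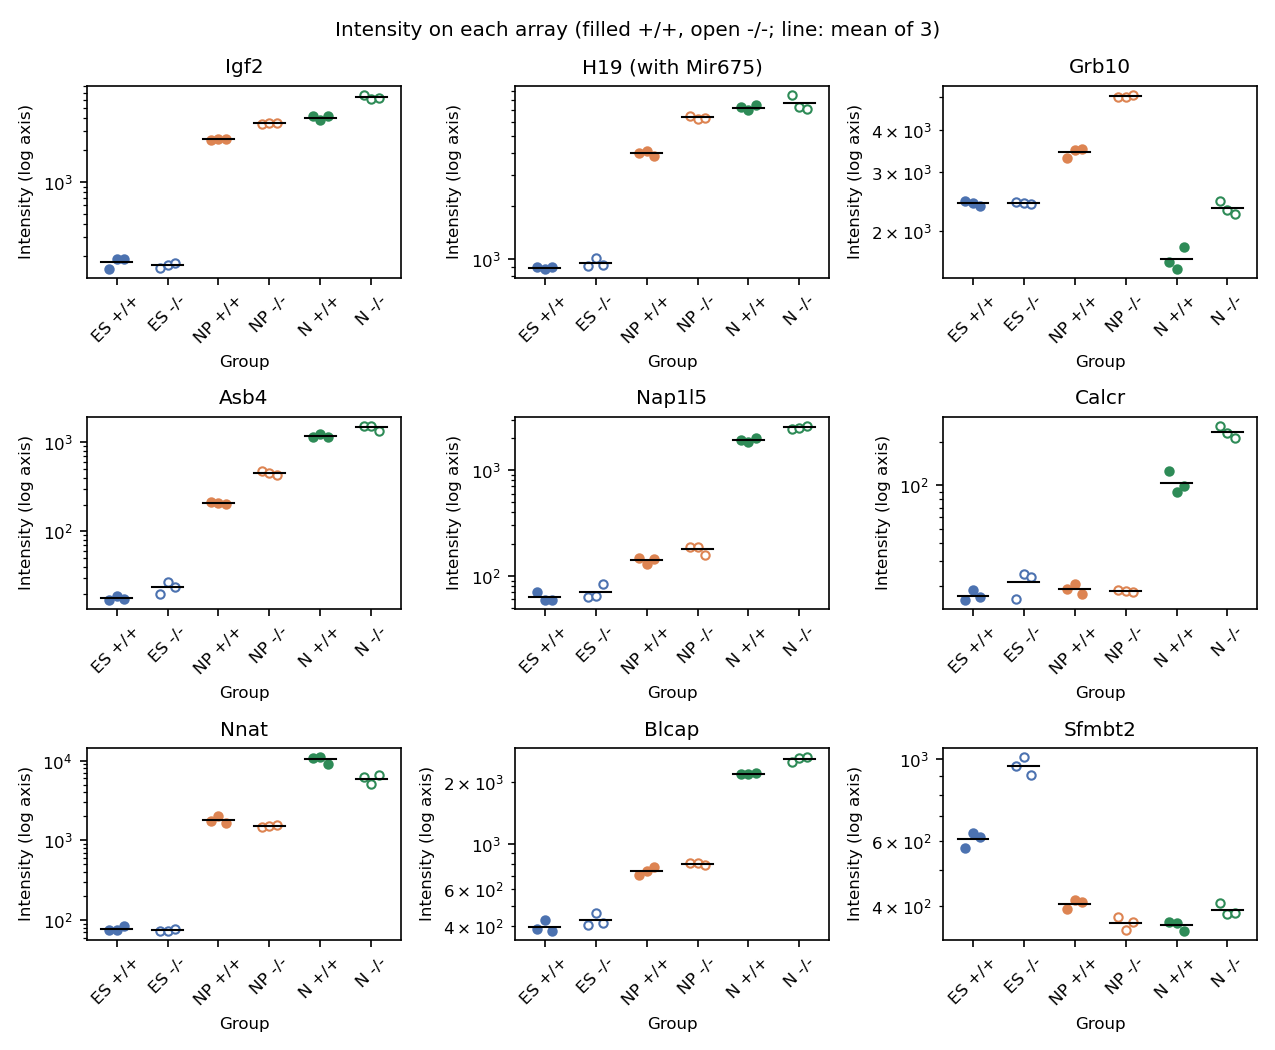
Intensity on each array, on a log axis, of 8 imprinted genes and the H19 and Mir675 probe set in ES cells, progenitors (NP) and neurons (N), with filled points for +/+, open points for -/- and a line at the mean of 3 arrays. Igf2, Grb10, Asb4 and H19 are higher in all 3 -/- progenitor arrays than in all 3 +/+ arrays, Nnat is lower in all 3 -/- neuron arrays, and Sfmbt2 is higher in all 3 -/- ES arrays.

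Further members were called with small differences. Nap1l5 was higher in -/- progenitors (189, 186 and 159 against 147, 129 and 144) by 0.34 (adjusted p 0.0297). In neurons it was higher by 0.38 (adjusted p 0.0188), at 2438, 2515 and 2625 against 1925, 1857 and 2025. The genotypes were apart in both cell types. Ndn, a MAGE family gene that restrains the cell cycle, was higher in -/- progenitors by 0.35 (adjusted p 0.0206), at 3577, 3957 and 3843 against 2918, 3021 and 2997. In ES cells the difference was 0.38 (adjusted p 0.0172), at 448, 563 and 552 against 355, 464 and 385, and the groups overlapped there.

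Peg3, Plagl1 and Zdbf2, all zinc finger genes, were higher in -/- progenitors by 0.17, 0.17 and 0.21 (adjusted p 0.0318, 0.0497 and 0.0419). Peg3 read 6119, 6163 and 6646 in -/- against 5495, 5574 and 5799. Plagl1 read 8542, 8373 and 8369.5 against 7584, 7867 and 7003, and Zdbf2 1664, 1727 and 1782 against 1413, 1434 and 1616. None of the 3 overlapped, and the calls were kept in 6, 4 and 6 of 13 alternatives. Trappc9, a vesicle transport gene, was lower in -/- progenitors by 0.29 (adjusted p 0.0223), at 114, 123 and 124 against 151, 149.7 and 140.5, also apart.

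In ES cells 4 more members were called. Dlk1 was higher in -/- by 0.34 (adjusted p 0.0322), at 77.6, 84.1 and 98.6 against 78.6, 65.6 and 60.7, with overlap. Its second probe set gave -0.12 and did not pass, and the Dlk1 call was kept in 7 of 13 alternatives. Magel2 was higher by 0.34 (adjusted p 0.0414), at 67.7, 93.9 and 67.3 against 57.8, 64.4 and 56.5. Impact was higher by 0.22 (adjusted p 0.0192), at 994, 1005 and 948 against 819, 876 and 840.3. The last 2 did not overlap.

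Gnas, which encodes the stimulatory G protein alpha subunit, was lower in -/- ES cells by 0.31 (adjusted p 0.0477), at 2039.5, 2034 and 1989.5 against 2309, 2129 and 3206. Replicate 3 of +/+, the array that stood apart, was the high one. Without it the difference was -0.13 (adjusted p 0.12). Of the 7 calls in ES cells only Sfmbt2 was kept in each of the 13 alternatives.

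Snrpn was called in no cell type at its own probe set. Of those shared with Snurf, 1 bright probe set was higher in -/- ES cells by 0.22 (10.1% of probe sets called). A dim one passed as well, at 46.7, 45.5 and 60.6 against 27.2, 31 and 31, and has no fold because the +/+ arrays were all under the filter level. Another 3 gave no call in ES cells, none of these 5 gave one in progenitors or neurons, where 8.37% of probe sets were called in neurons. The remaining one read 8.2 to 10 on all arrays. The 18 members with no call in any cell type, among them Meg3, Rian, Mirg, Mest, Copg2, Mkrn3, Ube3a, Usp29 and Gatm, had differences between -0.39 and 0.31. Zim1 read 26.4 to 47.3 over all arrays.

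By parental origin, as generally reported in the mouse, 18 tested members were classed as paternally expressed, 16 as maternally and 2 (Grb10 and Gnas) as mixed. Each gene has 1 class for all cell types, although imprinting can depend on tissue. Whether a member is imprinted in these cells was not measured. In progenitors 6 paternal members were higher and 1 lower, and 1 maternal member was higher and 1 lower. In neurons the counts were 2 and 1 for paternal, and 4 and 0 for maternal members. In ES cells they were 5 and 0, and 1 and 0. From +/+ ES cells to progenitors 14 paternal members rose and 3 fell, while 7 maternal members rose and 7 fell. Both classes mostly rose into neurons, with 12 rises and 4 falls, and 11 rises and 2 falls. Over all genes, 10.5% were higher and 4.32% lower for ES cells. For progenitors these shares were 7.81% and 9.19%, and for neurons 5.95% and 7.27%. Into +/+ progenitors 41.3% rose and 37.2% fell, and into neurons 34.6% and 44.4%. The difference between the classes was not tested.

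The genotype difference itself was compared between cell types by an interaction test. Progenitors differed from ES cells at 7 members (5 upward, 2 downward, with 16.3% of all genes called), where 5.71% of all genes were upward and 10.6% downward. Neurons differed from progenitors at 5, 3 upward and 2 downward (11.1% called, 5.67% and 5.41%). Neurons differed from ES cells at 6, 4 upward and 2 downward (15.7% called, 4.7% and 11%). Of all genes called there, 30.0% were upward, and 43.3% after quantile normalization. Igf2 and Grb10 gained their difference between ES cells and progenitors, by 0.60 (adjusted p 0.00103) and 0.55 (adjusted p 0.00014), and their change from progenitors to neurons did not pass. The Gnas value (0.43, adjusted p 0.0467) kept its call in 5 of 19 alternatives. H19 gained 0.58 and then lost 0.59, where 10.8% and 6.43% of probe sets were called. Asb4 lost 0.81 between progenitors and neurons (adjusted p 0.000338).

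Genes of related function were read from other lists, to be set beside the 14.9%, 17% and 13.2% of all genes called in ES cells, progenitors and neurons. Of 26 tested imprinted genes outside the 39, 5 were higher in -/- ES cells, among them Atp10a (0.49), Pon2 (0.45) and Inpp5f (0.38). Peg12 also passed, but all 6 of its ES arrays were under the filter level. In progenitors 3 were higher and 7 lower, with Ddc at 0.94, Slc38a4 at 0.83 and Dcn at 0.66 upward. Tfpi2 was lower, at 67.3, 59.6 and 47.5 in +/+ against 28.5, 28.6 and 21.8 in -/- progenitors, the latter all under the filter level. In neurons 3 were higher and 3 lower, with Ddc at 1.63 and Dcn at 1.10 upward and Ano1 at -0.94 downward. Ddc, which neighbours Grb10, also encodes the decarboxylase that makes dopamine, and Dcn, decorin, is abundant in fibroblasts.

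Of 15 tested genes of IGF signalling, 6 were higher and none lower in -/- progenitors by limma, where 7.81% of all genes were higher and 9.19% lower. The 4 largest were the binding protein genes Igfbp7 (1.33), Igfbp3 (0.88), Igfbp2 (0.51) and Igfbp4 (0.43). At an unadjusted p under 0.05 the list had 7 higher and 2 lower. In neurons 3 were higher and 2 lower, with Igf1 at 0.51 and Igf2bp1, an Igf2 mRNA binding protein, at -0.54. In ES cells Igfbp7 was at -0.86, with +/+ replicate 3 its highest array, and Igfbp4 at -0.28, with 2 higher and 2 lower in all.

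Among 25 tested genes that lay down or maintain imprints, none passed in progenitors by limma, where 3 had an unadjusted p under 0.05, all higher. In ES cells Dnmt3b, a DNA methyltransferase, was higher by 0.32 (adjusted p 0.0346) and Ehmt2, a histone methyltransferase, lower by a difference of -0.21 (adjusted p 0.037). In neurons 4 were lower and none higher: Dnmt3b (-0.48), Uhrf1 (-0.39), Ezh2 (-0.25) and Dnmt1 (-0.16). Unadjusted, 11 were lower and 3 higher there. Dnmt1 and Uhrf1 copy methylation at replication.

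The 5 nearest annotated genes on each side of the 17 member clusters (RefSeq order, GRCm38.p6) gave 50 tested neighbours. In -/- ES cells 7 were higher and 1 lower, in progenitors 10 and 0, and in neurons 6 and 3. Of the neighbours 16%, 20% and 18% were called, against 14.9%, 17% and 13.2% of all genes, so these totals lie near the background. By direction, 10.5% of all genes were higher and 4.32% lower in ES cells. In progenitors these shares were 7.81% and 9.19%, and in neurons 5.95% and 7.27%. The direction of the neighbours was not tested further, and some of them, such as Ddc and Peg12, are imprinted genes counted above. Gm13261, next to Sfmbt2, was higher in -/- ES cells by 1.37 (SE 0.10, adjusted p 4.96e-07). Itih5, on the same side, was higher by 0.64 in progenitors (adjusted p 0.00186) and, in neurons, by 1.02 (adjusted p 4.95e-05). Ddc stood second from Grb10.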

How the data were processed

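Affymetrix arrays of 18 mouse samples gave 1 linear intensity for each probe set. The authors deposited these intensities after RMA, and limma is also named, per the submitters' processing notes, with versions not given in the sources used here. No depth exists for arrays, and the number of arrays limits the precision. Intensities were taken as log2(intensity + 1). Probe sets were named from the platform annotation: 34945 carry 1 gene symbol, 932 several and 9160 none. Probe sets under the 40th percentile on more than 15 of the 18 arrays were left out, and the brightest kept probe set stood for its gene. limma 3.58.1 in R 4.3.3 fitted 6 group means (lmFit, eBayes, 12 residual degrees of freedom) with Benjamini-Hochberg adjustment within each comparison, and was tested on simulated data. Probe sets with several symbols were tested in a fit over 30890 probe sets. Alternatives were quantile normalization, no filter or a 60th percentile filter, a pseudocount of 16, the mean of a gene's probe sets, a replicate block, only the arrays compared, and each array left out. Per-array values are given for members called between genotypes or by an interaction and for the 6 most changed at each +/+ step, with up to 4 called genes named per other list and 3 neighbours. The members and all gene lists were chosen with earlier results of these data known. Sequences are from RefSeq.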

Additional observations from a re-analysis of the deposited data

Results flagged for a closer look

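The genotype difference (-/- minus +/+, log2 scale) differed between cell types, by the interaction term of limma at an adjusted p under 0.05, for these imprinted genes. From ES cells to progenitors it moved upward at Asb4 (0.74), Igf2 (0.60), Grb10 (0.55), Gnas (0.43) and Plagl1 (0.35), and at the probe set of H19 and Mir675 (0.58). It moved downward at Sfmbt2 (-0.83) and Impact (-0.28). The dim probe set shared by Snurf and Snrpn was called too, in 18 of 18 alternatives, where 10.8% of probe sets were called. Its +/+ ES arrays were all under the filter level. The Asb4 value compares progenitors with ES arrays that were all under the filter level, and the Gnas value includes the high +/+ ES array, replicate 3. The Gnas and Plagl1 differences went from below 0 in ES cells to above 0 in progenitors. That of Plagl1 did not pass in ES cells, where its 3 probe sets gave -0.18 to 0.09. Its interaction call was kept in 18 of 19 alternatives and lost with the mean of its probe sets (0.14, limma adjusted p 0.469). The Gnas call was kept in 5 of 19 alternatives, with adjusted p from 0.00703 to 0.116.

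From progenitors to neurons the difference moved upward at Calcr (1.20), Cd81 (0.38) and Sfmbt2 (0.31). It moved downward at Asb4 (-0.81), Nnat (-0.55) and H19 (-0.59). From ES cells to neurons it moved upward at Calcr (0.89), Igf2 (0.73), Grb10 (0.50) and Cd81 (0.31), and downward at Nnat (-0.74) and Sfmbt2 (-0.52). Calcr was under the filter level on all ES and progenitor arrays. From ES cells to neurons the dim Snurf and Snrpn probe set was called again, in 18 of 18 alternatives. A bright one moved downward and kept its call in 8 of 18. Groups of 3 arrays are too small for a test of single outlying arrays.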

How the results depend on the processing

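The number of members called in ES cells fell from 7 to 3 with the mean of a gene's probe sets and to 1 with only the ES arrays in the fit. The number of all genes called in ES cells fell from 2144 to 1956 and to 234 in these 2 settings. With only the arrays compared it fell from 2260 to 1270 for neurons against ES cells. Leaving out 1 array gave 2 to 8 members called in ES cells and 4 to 7 in progenitors. All genes called were then 1437 to 2222 in ES cells and 1809 to 1892 in progenitors. With the mean of probe sets, directions turned for Grb10 from ES cells to +/+ progenitors (-0.18), Impact from ES cells to -/- progenitors (-0.15), Sgce from progenitors to neurons (0.50 in +/+, 0.69 in -/-) and Mirg there in -/- (0.17). These genes have probe sets that moved unequally. Quantile normalization turned no direction of a result called with or without it. It kept 415 of 430 results on their side of the threshold, counting members and probe sets they share with other symbols. Replicate numbers did not pair the arrays: deviations of same-numbered arrays correlated at r -0.199 to 0.116. With the replicate number as a block, 6, 7 and 8 members were called in ES cells, progenitors and neurons. Of all genes, 1950, 2325 and 1743 were called. Gnas in ES cells and Plagl1, Sfmbt2 and Zdbf2 in progenitors lost their calls. So did the Gnas interaction (adjusted p 0.0564) and the fall of Ube3a into -/- progenitors (adjusted p 0.058).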
